A study of Mus musculus with 5 samples.

Results

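The genes described are those of cholesterol synthesis, transport and storage in cultured mouse fat cells. They are 35 genes chosen by name: 18 enzymes of the synthesis pathway, 4 genes of the SREBP control system, 3 of uptake, 3 of export and 7 of storage and transfer inside the cell. A named probe set was found for 33 of them, out of 19505 genes named on the array and 22206 probe sets in all. Acat2 and Soat1 matched none by symbol, synonym or gene number. They have no expression values here and enter only the promoter counts. Each of the 33 had a single probe set.

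RNA came from 3T3-L1 cells, an established mouse preadipocyte line, hybridised as 5 samples to Affymetrix Clariom S arrays. The cells of both groups went through the same schedule: 4 days in basal medium, 4 days with insulin at 5 µg/mL, dexamethasone at 1 µM and IBMX at 0.5 mM, 2 days with insulin alone and 1 day in basal medium. They were then moved to RPMI-1640 with 10% FBS for 72 h. Exposed samples (n = 3) shared this medium with human MM.1S myeloma cells kept behind a transwell membrane with 0.4 µm pores, and control samples (n = 2) had the medium alone. One mouse line and one myeloma line limit both groups as a model, the membrane lets secreted factors through but not cells, and the labels do not say whether replicates were separate cultures, so the spread may be technical. The comparison addresses how shared medium with myeloma cells, without contact, relates to the transcripts of mature adipocytes. Because controls had the medium alone, secreted factors cannot be told apart from other changes that myeloma cells make to the medium.

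Cells obtain cholesterol by making it from acetyl-CoA through the mevalonate pathway or by taking up lipoproteins. When sterols in the endoplasmic reticulum are low, SCAP escorts the transcription factor SREBP-2 to the Golgi, where it is cut and released to switch on the synthesis genes; when sterols are high, INSIG proteins hold SCAP back. Excess sterol is exported by ABC transporters, which the LXR nuclear receptors induce, or esterified and stored. Fat cells hold a large pool of free cholesterol in their lipid droplets and make little of it themselves.

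Values are log2 expression values that the authors made by RMA, a method that corrects background, equalises the distributions of the arrays and summarises the probes of a set. A difference of 1 is therefore 2-fold. Array medians lay between 4.80 and 4.88. Of 10 adipocyte markers 9 were measured, and their summed log2 value was 91.1 to 92.3 on exposed and 91.8 to 91.9 on control arrays. The corresponding sums were 72.0 to 72.7 against 73.1 to 73.2 for 8 of 10 preadipocyte and fibroblast markers, 33.0 to 34.4 against 33.3 to 35.1 for 9 of 10 macrophage markers, and 37.3 to 40.4 against 37.9 to 39.8 for 9 of 10 B and plasma cell markers. For the preadipocyte sum, the exposed arrays all lay below the controls. Among single probe sets 8.84% did so, and no such share was computed for sums. Values in the table ran from 1.2 to 13.2, so no marker could be at 0, and it carried no detection calls. Mean values were low for some macrophage and B cell markers, such as C1qa (2.40) and Jchain (2.26), and high for Xbp1 (8.78) and Sdc1 (7.49). The sums therefore do not show whether those cell types were present.

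No gene of the cholesterol system passed the test between exposed and control arrays. In limma's moderated test, adjusted over all 22206 probe sets, 0 of the 33 genes were called at an adjusted p under 0.05, and the share over the whole table was 0% (0 probe sets). At an unadjusted p under 0.05 there were also 0 of the 33, against 3.49% of all probe sets. The lowest unadjusted p among the genes was 0.10 for Abca1, and adjusted p-values ran from 0.93 to 1.00. In group means 17 genes were higher and 16 lower on exposed arrays, and over all probe sets 49.9% were higher. These are bulk samples, in which fewer cells of a type and less RNA per cell cannot be told apart.

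The intervals show how large a difference the spread of these arrays would allow. They are per gene and not adjusted for the number of genes. If the replicates were not separate cultures, the intervals do not bound the difference between cultures. The 95% interval of the difference excluded a 2-fold change in either direction for 30 of the 33 genes, against 92.9% of all probe sets; the exceptions were Abca1, Insig2 and Npc1, whose intervals passed 2-fold on the lower side only. An interval inside 1.5-fold was found for 21 genes, against 52.7% of all probe sets. Every exposed array lay above both control arrays for 3 genes, Lss, Dhcr7 and Apoe, where 8.50% of all probe sets did so, and below both for 1 gene, Lipa, where 8.84% did so. For 30 of the 33 genes (90.9%) the difference between group means was smaller than the range among the exposed arrays, against 81.8% of all probe sets.

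**Figure D1:**
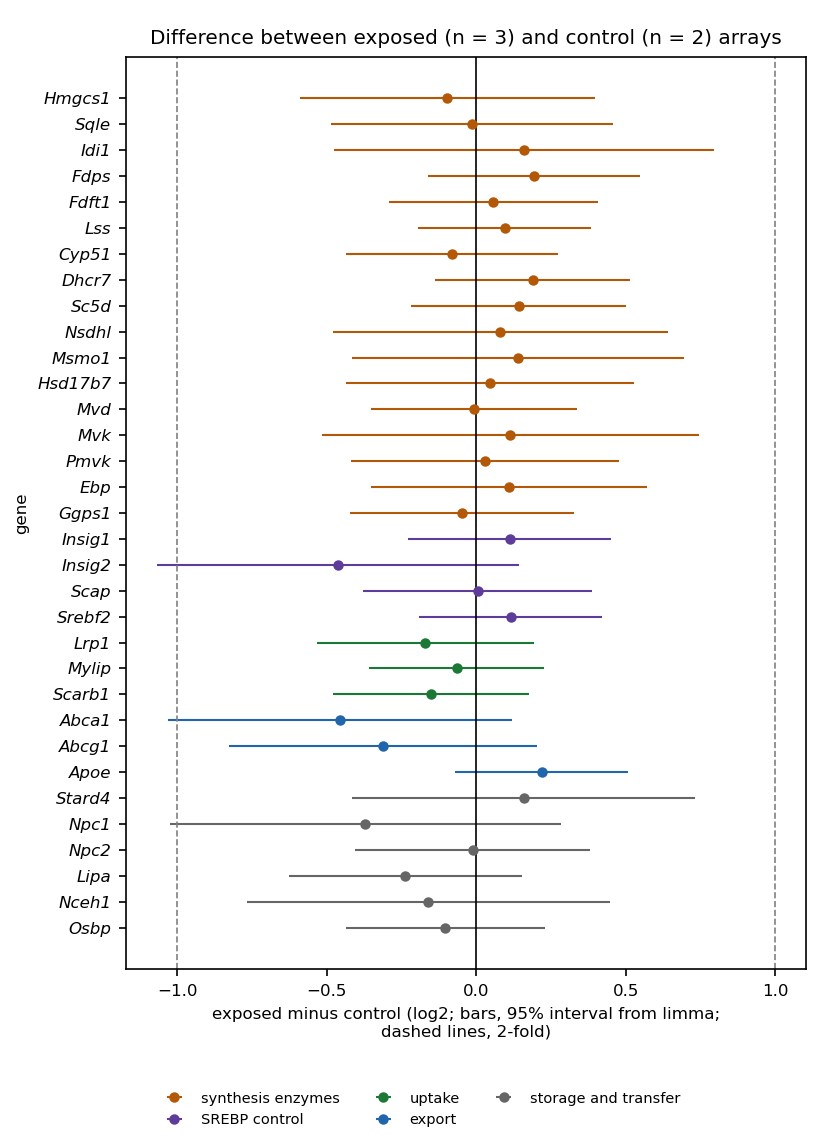
Exposed minus control difference of each of the 33 genes on the log2 scale (x axis) with its 95% interval from limma, coloured by role; dashed lines mark 2-fold. All intervals include 0, and those of Insig2, Abca1 and Npc1 cross the lower 2-fold line.

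The synthesis enzymes were mostly a little higher in mean on exposed arrays, and the genes of uptake, export and storage mostly a little lower. Of 17 enzymes 12 were higher and 5 lower, with a median difference of 0.081 and a range from -0.10 to 0.19. Of 12 uptake, export and storage genes 2 were higher and 10 lower, with a median of -0.16 and a range from -0.46 to 0.22. The 4 SREBP control genes had a median of 0.058, and the median over all probe sets was -0.00040. Members and roles were chosen with earlier results of these data known, so these counts are a description without a test.

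Different arrays carried the values of the 2 groups of genes. As the mean deviation from each gene's own mean over the 5 arrays, the synthesis enzymes stood at -0.045, 0.19 and -0.063 on exposed arrays 1, 2 and 3, and at -0.0022 and -0.075 on control arrays 1 and 2. Exposed array 2 alone lay clearly above the rest, and exposed arrays 1 and 3 lay between the control arrays. The highest of the 5 values fell on exposed array 2 for 11 of 17 enzymes (64.7%), where it did so for 16.9% of all probe sets. Without exposed array 2 the median of the enzymes was -0.024, with 6 of 17 higher, and without control array 2 it was 0.033, with 9 of 17 higher.

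The uptake, export and storage genes stood at 0.020, 0.033 and -0.22 on exposed arrays 1, 2 and 3, and at 0.11 and 0.060 on control arrays 1 and 2. All exposed arrays lay below both control arrays in this mean, by far the most on exposed array 3. Among single probe sets 8.84% did so, and no such share was computed for means over gene groups. The lowest value of a gene fell on exposed array 3 for 8 of 12 genes (66.7%), where it did so for 23.0% of all probe sets. Without exposed array 3 the median was -0.095, with 8 of 12 lower. The preadipocyte marker sum was likewise lower on every exposed array, as given above, and its part in this difference was not tested.

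The gap between synthesis and the uptake, export and storage genes, taken within each array, was -0.065, 0.15 and 0.16 on exposed arrays 1, 2 and 3. It was -0.11 and -0.14 on control arrays 1 and 2. The group means were 0.081 ± 0.13 (SD, n = 3) and -0.12 ± 0.019 (SD, n = 2), a difference of 0.20. Exposed arrays lay above both control arrays in this gap, although exposed array 1 lay close to them. Among single probe sets 8.50% lay above both controls on every exposed array, and no such share was computed for gaps between gene groups. Leaving out any 1 array gave differences from 0.17 to 0.28. Like the counts above, the gap is a description without a test, for gene groups chosen with earlier results known. On exposed array 2 the gap came from high enzyme values and on exposed array 3 from low values of the other genes.

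**Figure D2:**
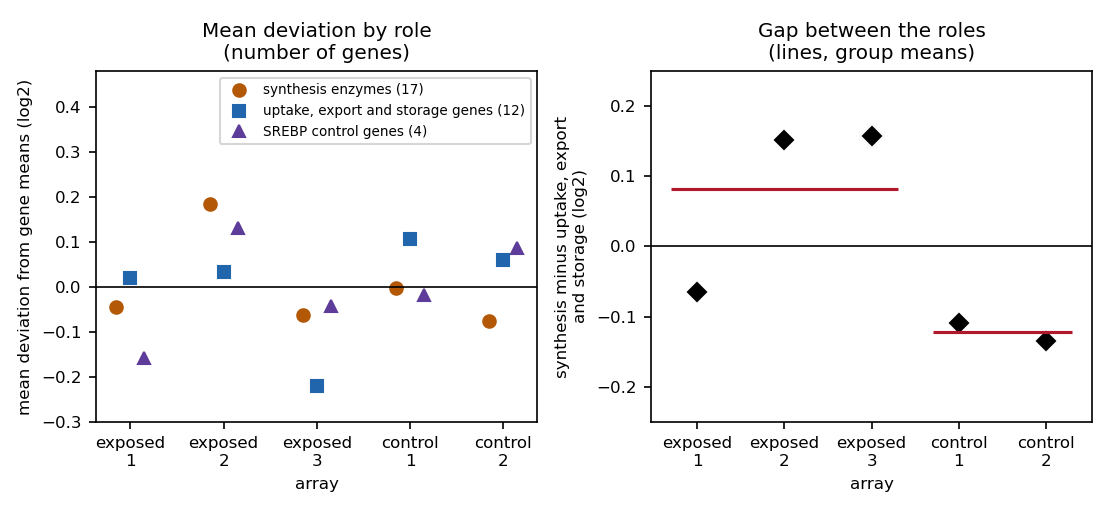
Left, mean deviation (log2) of the synthesis enzymes (17 genes), the uptake, export and storage genes (12) and the SREBP control genes (4) from their gene means on each array; right, the synthesis mean minus the uptake, export and storage mean on each array, with lines at the group means. The enzymes stand highest on exposed array 2 at 0.19 and the other genes lowest on exposed array 3 at -0.22.

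**Figure D3:**
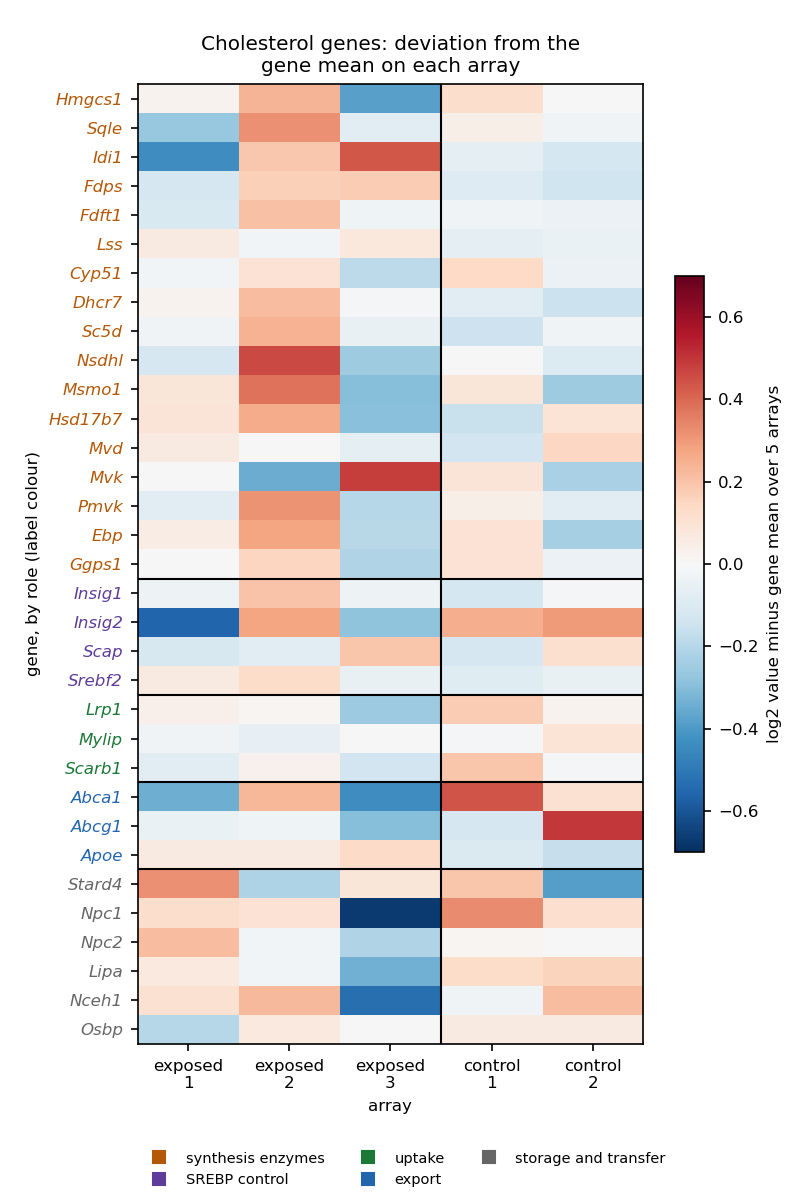
Deviation of each gene's log2 value from its mean over the 5 arrays (colour), with genes in rows by role and arrays in columns, exposed left of the line and control right of it. Most synthesis enzymes are red on exposed array 2, while Npc1, Nceh1, Lipa and Abca1 are blue on exposed array 3.

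Among the early enzymes, which build the isoprenoid units, no gene separated the groups. Hmgcs1, the HMG-CoA synthase that starts the mevalonate pathway, had log2 values of 8.85, 9.06 and 8.45 on exposed arrays 1, 2 and 3 and 8.94 and 8.82 on control arrays 1 and 2. Exposed arrays held both its highest and its lowest value, and the difference was -0.10 with an interval from -0.59 to 0.40. Idi1, which interconverts the isoprenoid building blocks, was at 6.06, 6.68 and 6.93 on exposed arrays 1, 2 and 3 and at 6.43 and 6.37 on the controls. Its exposed values surrounded the controls, and without exposed array 3 its difference went from 0.16 to -0.027.

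Fdps, the farnesyl diphosphate synthase, was at 9.09, 9.37 and 9.38 on exposed arrays 1, 2 and 3 and at 9.11 and 9.06 on control arrays 1 and 2. Exposed arrays 2 and 3 lay above both controls and exposed array 1 between them. Its difference of 0.19 (-0.16 to 0.55) was the widest among the enzymes and did not pass (limma adjusted p 0.93). The kinases and the decarboxylase of the pathway differed by 0.11 (Mvk), 0.030 (Pmvk) and -0.0082 (Mvd). Ggps1, which makes the longer isoprenoid used for protein prenylation, differed by -0.049. Mvk ran against the other enzymes, with its lowest value of 5.00 on exposed array 2 and its highest of 5.83 on exposed array 3.

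The later enzymes, which turn squalene into cholesterol, were highest on exposed array 2 in most cases. Sqle, the squalene epoxidase and a rate-limiting step, was at 8.07, 8.65 and 8.26 on exposed arrays 1, 2 and 3 and at 8.37 and 8.31 on control arrays 1 and 2. Its exposed arrays lay on both sides of the controls, and its difference was -0.014 (-0.49 to 0.46). Dhcr7, the last reductase of one branch, was at 6.55, 6.74 and 6.52 on exposed and at 6.45 and 6.38 on control arrays. The groups did not overlap, yet the difference of 0.19 (-0.14 to 0.51) did not pass (limma adjusted p 0.93), and it was 0.12 without exposed array 2.

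Sc5d, the sterol desaturase before that step, was at 8.57, 8.84 and 8.54 on exposed and at 8.45 and 8.57 on control arrays, a difference of 0.14 (-0.22 to 0.50). Only exposed array 2 stood above both controls, and the difference was 0.047 without it. Lss, which closes the sterol rings, varied little: the exposed mean was 7.32 ± 0.052 (SD, n = 3) and the control mean 7.23 ± 0.011 (SD, n = 2), with every exposed array higher. The remaining enzymes were Fdft1, which makes squalene, at 0.056, and the demethylation genes Cyp51 at -0.082, Msmo1 at 0.14, Nsdhl at 0.081 and Hsd17b7 at 0.046. The isomerase gene Ebp differed by 0.11. Nsdhl showed the pattern of exposed array 2 most widely, at 8.85 there against 8.14 to 8.39 on the other 4 arrays. The exposed SD was larger than the control SD for 15 of 17 enzymes (88.2%), against 64.0% of all probe sets.

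None of the 4 genes of the SREBP system that controls these enzymes passed the test, and each differed by less than the range among its exposed arrays. Srebf2, which encodes SREBP-2, was at 8.42, 8.48 and 8.30 on exposed arrays 1, 2 and 3 and at 8.27 and 8.30 on control arrays 1 and 2. Exposed array 3 lay between the controls, and the difference was 0.11 (-0.19 to 0.42), or 0.073 without exposed array 2. Insig1, itself a target of SREBP-2, was at 8.85, 9.09 and 8.86 on exposed and at 8.77 and 8.88 on control arrays, a difference of 0.11 (-0.23 to 0.45). It was highest on exposed array 2, and the difference was 0.032 without that array and 0.056 without control array 1. The SREBP escort gene Scap differed by 0.0043 (-0.38 to 0.39).

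Insig2, the INSIG form that does not depend on SREBP-2, was at 5.14, 5.97 and 5.42 on exposed arrays 1, 2 and 3 and at 5.95 and 5.99 on control arrays 1 and 2. Exposed arrays 1 and 3 were low, while exposed array 2 lay between the controls. Its difference of -0.46 (-1.07 to 0.14) was the widest of all 33 genes and did not pass (limma adjusted p 0.93). Leaving out 1 array moved it between -0.69 and -0.28, the smaller size without exposed array 1 and the larger without exposed array 2.

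Sequences before the start sites are shown as background, for genes higher and genes lower in mean on exposed arrays. None of these differences passed the test, and those of Hmgcs1 and Idi1 changed sign without exposed array 3. They come from RefSeq on GRCm38.p6 and so from a reference strain, not from the 3T3-L1 line. Windows of 250 bases before to 50 after a start site were found for 28 of the 35 genes; Sqle, Fdps, Fdft1, Scarb1, Abcg1, Stard4 and Npc1 had no entry. Each line gives the 150 bases before the first start site listed, 5′ to 3′ on the gene's strand, with motif letters in capitals. The motifs, searched on both strands, were the core of the sterol regulatory element (TCACNCCAC), the Y box CCAAT that NF-Y binds, the E-box CACGTG and the LXR element, a spaced direct repeat of AGGTCA known as DR4. The E-box reads the same on both strands and was counted once, and no matches of different motifs overlapped in these windows.
Hmgcs1 (chr13:119690201-119690350, plus strand): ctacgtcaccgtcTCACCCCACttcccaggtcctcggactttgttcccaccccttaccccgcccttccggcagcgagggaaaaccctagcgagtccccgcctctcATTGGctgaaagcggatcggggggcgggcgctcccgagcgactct
Idi1 (chr13:8885456-8885605, plus strand): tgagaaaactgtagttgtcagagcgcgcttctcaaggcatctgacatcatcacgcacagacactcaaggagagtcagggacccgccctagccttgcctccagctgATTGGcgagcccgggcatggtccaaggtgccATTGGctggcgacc
Sc5d (chr9:42264301-42264450, minus strand): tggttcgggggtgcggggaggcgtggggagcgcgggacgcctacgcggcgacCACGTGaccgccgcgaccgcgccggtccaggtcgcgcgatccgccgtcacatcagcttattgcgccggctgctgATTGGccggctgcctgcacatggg
Insig1 (chr5:28071262-28071411, plus strand): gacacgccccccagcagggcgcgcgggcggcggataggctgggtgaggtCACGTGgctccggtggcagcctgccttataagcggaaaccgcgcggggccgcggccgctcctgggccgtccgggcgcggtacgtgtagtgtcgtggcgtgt
Insig2 (chr1:121332590-121332739, minus strand): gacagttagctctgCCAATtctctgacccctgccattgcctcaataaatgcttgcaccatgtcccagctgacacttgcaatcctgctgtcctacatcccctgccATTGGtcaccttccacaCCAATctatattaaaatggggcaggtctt
Abca1 (chr4:53159896-53160045, minus strand): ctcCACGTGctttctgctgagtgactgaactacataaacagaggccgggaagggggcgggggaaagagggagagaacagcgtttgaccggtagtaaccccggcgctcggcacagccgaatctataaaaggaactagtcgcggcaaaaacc
In these stretches Hmgcs1 carried the sterol element 137 bases before the start site and a reversed Y box at 45 bases. Idi1 had reversed Y boxes at 45 and 14 bases, and Sc5d an E-box at 98 and a reversed Y box at 24 bases. Insig1 had an E-box at 101 bases. Insig2 had Y boxes at 136 and 29 bases and a reversed one at 46 bases, and Abca1 an E-box at 147 bases.

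The Y box was the motif that most enzyme promoters shared. It was present in at least 1 window of 14 of 15 enzymes with an entry (93.3%), of 6 of 9 uptake, export and storage genes and of 3 of 4 SREBP control genes, and of 41.1% of all genes (37.4% of all windows). These promoter counts include Acat2, without a Y box, and Soat1, which has it, although neither has expression values here. The sterol element core was found in 1 of 15 enzymes, Hmgcs1, and in 1.44% of all genes. The E-box was found in 3 of 15 enzymes, 2 of 9 uptake, export and storage genes and 2 of 4 SREBP control genes, against 8.09% of all genes. The LXR element was in none of the 28 genes and in 0.0148% of all genes. A match describes letters in a window and says nothing of binding in these cells, and a window without a match says only that these exact letters are not in it.

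Export genes held the widest difference outside the SREBP system, that of Abca1. Abca1, which loads cholesterol onto lipid-poor apolipoprotein and is induced by LXR, was at 8.33, 8.91 and 8.24 on exposed arrays 1, 2 and 3 and at 9.12 and 8.78 on control arrays 1 and 2. Exposed arrays 1 and 3 were low, while exposed array 2 lay between the controls, as with Insig2. Its difference of -0.46 (-1.03 to 0.12) did not pass (limma adjusted p 0.93). It was negative with every single array left out, from -0.66 without exposed array 2 to -0.29 without control array 1.

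Abcg1, the transporter that passes cholesterol to HDL and another LXR target, was at 5.92, 5.94 and 5.67 on exposed arrays 1, 2 and 3 and at 5.85 and 6.46 on control arrays 1 and 2. Control array 2 alone was high, and control array 1 lay within the exposed values. Its difference of -0.31 (-0.83 to 0.20) was -0.0057 without control array 2 and -0.62 without control array 1. Apoe, which encodes a lipoprotein component that adipocytes secrete, went the other way at 6.20, 6.20 and 6.27 on exposed and 6.04 and 5.98 on control arrays. The groups did not overlap and both spreads were small, with means of 6.23 ± 0.041 (SD, n = 3) and 6.01 ± 0.043 (SD, n = 2), but the difference of 0.22 (-0.072 to 0.51) did not pass (limma adjusted p 0.93). Leaving out 1 array kept it between 0.19 and 0.25.

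All 3 uptake genes were lower in mean on exposed arrays, each with overlap. Scarb1, the HDL receptor that takes up cholesteryl ester, was at 7.21, 7.32 and 7.15 on exposed arrays 1, 2 and 3 and at 7.48 and 7.28 on control arrays 1 and 2. Exposed array 2 lay between the controls, and the difference was -0.15 (-0.48 to 0.18). It was -0.052 without control array 1 and -0.25 without control array 2. Lrp1, a large endocytic receptor for lipoprotein remnants, was at 9.47, 9.45 and 9.17 on exposed and at 9.61 and 9.46 on control arrays, a difference of -0.17 (-0.53 to 0.19). Exposed array 3 was the low one, and the difference was -0.076 without it and -0.095 without control array 1. Mylip, a ubiquitin ligase that marks lipoprotein receptors for breakdown and so opposes uptake, differed by -0.066 (-0.36 to 0.23), by -0.012 without control array 2 and by -0.12 without control array 1.

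Of the genes that release and move cholesterol inside the cell, Npc1, Npc2, Lipa and Nceh1 were lowest on exposed array 3 and Osbp on exposed array 1. Npc1, the membrane protein that moves cholesterol out of lysosomes, was at 6.59, 6.57 and 5.80 on exposed arrays 1, 2 and 3 and at 6.80 and 6.58 on control arrays 1 and 2. Exposed array 3 stood far below the other 4, and the difference of -0.37 (-1.02 to 0.28) was -0.11 without it. Lipa, the lysosomal acid lipase that frees cholesterol from ingested esters, was at 8.51, 8.42 and 8.11 on exposed and at 8.57 and 8.59 on control arrays. All exposed values lay below the controls, and the difference of -0.24 (-0.63 to 0.15) did not pass (limma adjusted p 0.93); without exposed array 3 it was -0.12.

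Nceh1, a hydrolase of stored cholesteryl ester, differed by -0.16 (-0.77 to 0.45) and by 0.071 without exposed array 3, where it read 5.93 against 6.43 to 6.69 on the other arrays. Npc2, the soluble partner of NPC1, was also lowest on exposed array 3, at 10.78 against 10.97 to 11.21 on the other arrays. Its means were 10.99 ± 0.21 (SD, n = 3) and 11.00 ± 0.0095 (SD, n = 2), a difference of -0.012 (-0.40 to 0.38). Osbp, which carries cholesterol from the endoplasmic reticulum to the Golgi, differed by -0.10 (-0.44 to 0.23). It was lowest on exposed array 1, at 6.87, and the difference was -0.027 without that array. Stard4, a soluble sterol carrier that SREBP-2 induces, was at 5.41, 4.87 and 5.17 on exposed arrays 1, 2 and 3 and at 5.28 and 4.70 on control arrays 1 and 2. Its groups overlapped in part, the difference was 0.16 (-0.42 to 0.73), 0.45 without control array 1 and -0.13 without control array 2, and it did not follow the enzymes on exposed array 2.

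**Figure D4:**
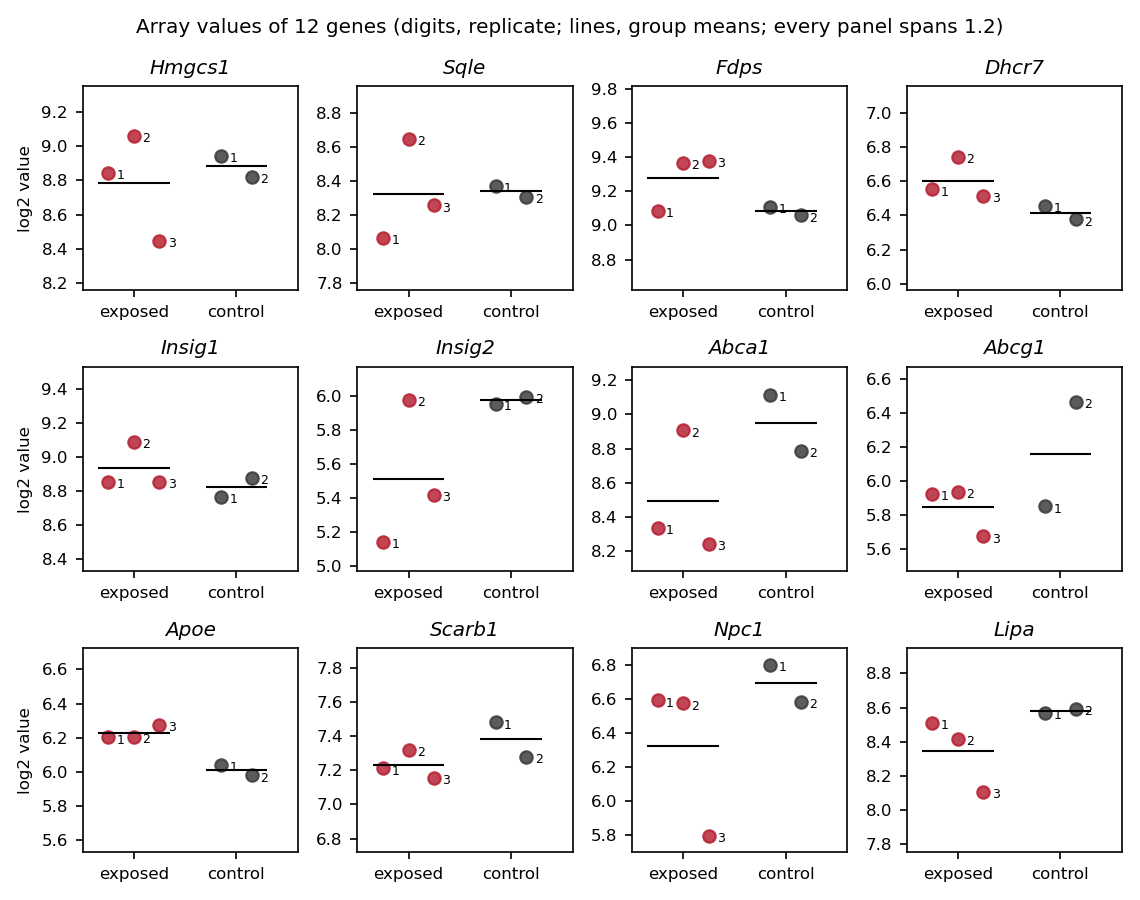
Log2 value (y axis) of 12 genes on the exposed arrays (red, replicates 1 to 3) and control arrays (grey, replicates 1 and 2), with lines at group means; each panel spans 1.2 log2 units. Apoe, Dhcr7 and Lipa show no overlap between groups, and Insig2 and Abca1 show exposed array 2 level with the controls.

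Other genes of the same system were read from lists written from general knowledge of the pathway. None passed the test (limma adjusted p from 0.93 to 1.00, 0% called over all probe sets). Of 13 further SREBP and INSIG pathway genes 9 were measured, of which 4 were higher and 5 lower, with a median of -0.045. Of the 9, 2 had an unadjusted p under 0.05 in limma, where 3.49% of all probe sets did: Vcp, the ATPase that extracts proteins from the endoplasmic reticulum membrane, at -0.53 (-1.02 to -0.036), and Erlin2, which helps to hold SREBP back, at -0.44 (-0.85 to -0.029). Vcp was at 6.44, 6.93 and 6.35 on exposed and 7.17 and 7.03 on control arrays, and Erlin2 at 6.16, 6.35 and 5.89 against 6.58 and 6.55. Both lay below both controls on every exposed array, as 8.84% of all probe sets did, and least so on exposed array 2. They were named for their low p, so this separation adds no separate evidence.

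Of 12 further sterol synthesis genes 7 were measured, of which 3 were higher and 4 lower, with a median of -0.028; the lowest unadjusted p belonged to Lbr, a nuclear envelope protein with sterol reductase activity, at -0.34 (-0.69 to 0.018). Of 14 LXR pathway and oxysterol genes 11 were measured, of which 4 were higher and 7 lower, with a median of -0.21. Their mean difference was -0.070, with a range from -0.34 to 0.51, so the widest was upward. Several had low values, with a mean over the arrays down to 3.44. Here the phospholipid transfer gene Pltp differed by -0.30 (-0.67 to 0.076) and the transporter gene Abcg4 by -0.30 (-0.70 to 0.10). Of 27 sterol transfer and lipoprotein receptor genes 26 were measured, of which 12 were higher and 14 lower, with a median of -0.020. The receptor gene Lrp8 had the lowest unadjusted p there, at -0.50 (-1.03 to 0.034). Its values were low and overlapped, at 2.65, 3.16 and 2.84 on exposed arrays 1, 2 and 3 and 3.62 and 3.14 on control arrays 1 and 2.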

How the data were processed

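Expression was measured in 5 samples, 1 array each (3 exposed, 2 control). Per the submitters' processing notes, the authors made the deposited log2 values with RMA in Partek; versions and annotation build are not given in the sources used here. All 22206 probe sets entered 1 fit per setting with limma 3.58.1 in R 4.3.3 (group as the only term, two-sided, Benjamini-Hochberg adjustment, called at 0.05, 3 residual and 3.17 prior degrees of freedom); intervals are 95%. The procedure was run on simulated data with added shifts wider than any difference described here. That run gives no measure of how often differences of the size described would be called. Symbols came from the platform annotation: 19572 probe sets had 1 symbol and 2634 none. The members and lists were chosen with earlier results of these data known, and no list was tested. Every member may be named; array values are given for the 12 of lowest unadjusted p and for 13 listed whatever their result (partly the same genes; Soat1 among them was not measured), and any others were picked after their values were seen. From each further list the text names up to 2 genes by unadjusted p. Promoter windows were searched by exact letters in Python 3.11.15. The small number of arrays sets the precision.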

Additional observations from a re-analysis of the deposited data

How the results depend on the processing

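The count of called genes was 0 over all probe sets and among the 33 genes under every alternative: each array left out, the replicate block, array medians centred, only the brighter part of the probe sets (from the median level up), robust trended moderation, no moderation and array weights. No member has several probe sets, so that choice changed nothing. Where a control array is left out, the spread of the remaining one is taken from the exposed arrays. With 1 array left out, the median difference ran from -0.024 to 0.11 for the enzymes, from -0.21 to -0.095 for uptake, export and storage genes and from -0.028 (without control array 1) to 0.13 for the SREBP control genes. The deviations of same-numbered arrays from their group means had correlations of -0.014 and -0.032. The numbers in the sample titles instead place control array 1 next to exposed array 2, and control array 2 next to exposed array 3. Arrays joined that way had correlations of 0.032 and 0.013, and that pairing was not fitted. The deviations of the control arrays are mirror images of each other, so these correlations cannot decide which arrays, if any, were paired. The replicate block joins arrays by replicate number alone. It drops exposed array 3 and has the same estimates as leaving that array out. Under that replicate block the medians were 0.083, -0.095 and 0.029 and the gap difference 0.17.

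The direction held under every alternative for 16 of 33 genes, among them 4 of 17 enzymes (Fdps, Lss, Dhcr7 and Sc5d) and 9 of 12 uptake, export and storage genes. The cause was not tested for the others. Under the replicate block the sign turned for Hmgcs1 (0.073), Sqle (0.019), Idi1 (-0.027), Mvd (0.025), Mvk (-0.10), Ggps1 (0.045), Scap (-0.093), Npc2 (0.091) and Nceh1 (0.071). Centring turned Scap to -0.014. With 1 array left out, values ran from -0.24 to 0.073 for Hmgcs1, -0.18 to 0.11 for Sqle, -0.027 to 0.41 for Idi1, -0.035 to 0.12 for Fdft1, -0.17 to 0.0087 for Cyp51, -0.14 to 0.22 for Nsdhl, -0.027 to 0.31 for Msmo1 and -0.080 to 0.20 for Hsd17b7. They ran from -0.15 to 0.13 for Mvd, -0.10 to 0.31 for Mvk, -0.12 to 0.14 for Pmvk, -0.058 to 0.28 for Ebp, -0.13 to 0.045 for Ggps1, -0.11 to 0.12 for Scap, -0.13 to 0.45 for Stard4, -0.12 to 0.091 for Npc2 and -0.31 to 0.071 for Nceh1.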

Other observations

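Acly, which makes the cytosolic acetyl-CoA that feeds both cholesterol and fatty acid synthesis, spread more widely than any of the 17 enzymes, with 8.65, 8.88 and 9.90 on exposed arrays 1, 2 and 3 and 9.28 and 9.08 on control arrays 1 and 2. Exposed arrays held its lowest and its highest value, and the group difference was -0.038 (-0.94 to 0.86). Apoc1, a small apolipoprotein gene, differed by 0.034 (-0.29 to 0.36) where Apoe differed by 0.22. Both genes were picked after their values were seen.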
